A study of Homo sapiens with 32 samples.

Results

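The regions described here are the 10-kb bins of chromosomes 1 to 22 that lie wholly inside a protein-coding gene of at least 500 kb in the RefSeq annotation of GRCh38. Counting bins from position 1 of each chromosome, 24776 of 287382 autosomal bins met this rule, and they lay in 303 genes. The rule uses gene annotation and position, and no coverage value. H3K27me3, the trimethyl mark on lysine 27 of histone H3, was profiled by ChIPmentation, a chromatin immunoprecipitation in which the sequencing adapters are inserted on the beads by a transposase. The cells were MDA-MB-231, a human cell line from a triple-negative breast cancer, and there were 16 H3K27me3 libraries in 4 groups of 4. The groups were untreated controls, an EZH2 inhibitor (labelled EPZ, and EP7 in sample titles), a p38 inhibitor (labelled P38i) and both inhibitors (labelled Combo, called combo here), with treatment for 24 h. The labels do not say whether replicates came from separate cultures, so p-values measure the spread between these libraries, which may be technical. All the libraries come from 1 cell line, and the islands hold no expression data against which its identity could be checked.

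H3K27me3 is written by Polycomb repressive complex 2, whose catalytic subunit is EZH2, and it can spread over long stretches of chromatin that are not transcribed. Very long human genes owe their length to introns, and many of them encode neuronal adhesion molecules, ion channels, synaptic scaffolds and signalling enzymes that epithelial cells make little of. Transcription through a gene body opposes the mark, so the genes of this length that most cells transcribe serve here as a contrast. The deposited values are the bounds of islands, the enriched stretches that the authors' caller reported in each library, and the measure used throughout is coverage, the percent of a bin or gene that lies under islands. A library held 53290 to 85194 islands over 474 to 674 Mb, and control replicate 4, EPZ replicates 1 and 2 and combo replicate 1 had the smallest covered lengths. Read depth is unknown, so a difference in coverage is a difference in what was called. In bulk cells, fewer cells with the mark and less of the mark per cell cannot be told apart.

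The starts of these genes ranged from fully covered to empty. The promoters below belong to the 3 genes with the highest and the 3 with the lowest control coverage of the first 50 kb from the start, among genes at least 20% covered (of 9 genes with a start at 0, the 3 longest were taken). They are shown as the extremes of start coverage among genes that carry the mark. Each runs 5′ to 3′ on the gene's strand from 250 bases before to 50 bases after a RefSeq start (build GRCh38.p14), and capitals mark CpG dinucleotides, the sequence feature of promoters to which Polycomb complexes are often recruited. The first 3 belong to genes with a covered first 50 kb and the last 3 to genes with an empty one.
NTM: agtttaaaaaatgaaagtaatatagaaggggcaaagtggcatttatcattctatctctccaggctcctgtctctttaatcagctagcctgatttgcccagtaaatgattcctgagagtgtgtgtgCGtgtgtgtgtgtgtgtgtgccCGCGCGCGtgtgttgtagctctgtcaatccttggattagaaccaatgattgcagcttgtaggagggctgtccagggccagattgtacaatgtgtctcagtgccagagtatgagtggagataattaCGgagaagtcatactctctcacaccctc
PLXNA4: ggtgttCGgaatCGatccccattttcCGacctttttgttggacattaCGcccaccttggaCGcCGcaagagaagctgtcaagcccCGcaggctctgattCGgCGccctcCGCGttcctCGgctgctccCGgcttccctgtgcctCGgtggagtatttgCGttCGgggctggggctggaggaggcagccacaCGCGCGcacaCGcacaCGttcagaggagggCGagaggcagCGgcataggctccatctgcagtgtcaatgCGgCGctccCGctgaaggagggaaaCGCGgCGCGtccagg
RIMS1: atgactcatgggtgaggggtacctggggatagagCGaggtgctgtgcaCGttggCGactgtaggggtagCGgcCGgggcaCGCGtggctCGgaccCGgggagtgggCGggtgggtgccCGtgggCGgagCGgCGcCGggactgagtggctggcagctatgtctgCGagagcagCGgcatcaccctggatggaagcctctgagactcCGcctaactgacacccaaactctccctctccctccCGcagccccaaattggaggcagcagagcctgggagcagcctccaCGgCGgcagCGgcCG
DAB1: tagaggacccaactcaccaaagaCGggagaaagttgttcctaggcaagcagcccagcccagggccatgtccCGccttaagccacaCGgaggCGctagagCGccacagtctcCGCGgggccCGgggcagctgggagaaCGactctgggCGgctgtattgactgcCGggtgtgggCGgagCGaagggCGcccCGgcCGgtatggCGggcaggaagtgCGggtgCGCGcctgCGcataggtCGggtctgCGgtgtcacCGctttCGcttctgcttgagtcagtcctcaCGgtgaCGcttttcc
MAGI2: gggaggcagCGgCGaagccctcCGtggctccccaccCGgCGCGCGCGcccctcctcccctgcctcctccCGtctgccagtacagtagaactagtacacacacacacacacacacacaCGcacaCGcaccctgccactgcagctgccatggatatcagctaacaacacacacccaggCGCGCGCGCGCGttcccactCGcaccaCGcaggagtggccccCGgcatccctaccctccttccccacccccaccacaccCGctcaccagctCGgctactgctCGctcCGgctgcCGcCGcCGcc
CAMTA1: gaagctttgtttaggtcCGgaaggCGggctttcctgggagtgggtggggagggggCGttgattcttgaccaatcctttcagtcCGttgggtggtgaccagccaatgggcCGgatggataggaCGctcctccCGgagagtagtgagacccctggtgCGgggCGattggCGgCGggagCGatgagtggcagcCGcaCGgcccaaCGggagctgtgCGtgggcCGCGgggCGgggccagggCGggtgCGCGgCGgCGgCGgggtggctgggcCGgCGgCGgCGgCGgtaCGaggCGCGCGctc

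NTM (neurotrimin, a GPI-anchored neural adhesion protein) has its printed start at chr11:131370365-131370664, plus strand. PLXNA4 (plexin A4, a semaphorin receptor) is shown at chr7:132576421-132576720, minus strand, which lies 72.2 kb inside the outer bound of the gene. RIMS1 (a scaffold of the presynaptic active zone) is shown at chr6:71886300-71886599, plus strand. Their first 50 kb were 98.3%, 98.2% and 98.1% covered in the control mean, and their interiors 62.8%, 86.7% and 70.0%. DAB1 (an adaptor of reelin signalling) is shown at chr1:58546677-58546976, minus strand, MAGI2 (a synaptic scaffold) at chr7:79453618-79453917, minus strand and CAMTA1 (a calmodulin-binding transcription activator) at chr1:6785204-6785503, plus strand. The first 50 kb of these 3 genes held no island in any control library, while their interiors were 54.3%, 69.2% and 32.5% covered. The promoters shown held 6 (NTM), 30 (PLXNA4) and 23 (RIMS1) CpG in genes with a covered first 50 kb and 27, 27 and 34 in genes with an empty one. That of PLXNA4 lies beyond the 50 kb whose coverage is given. Over all 177 very long genes with a RefSeq promoter at the outer bound, the median was 25 CpG and 83.6% had at least 10, against a median of 22 and 73.0% for the first listed promoter of 15812 protein-coding genes. The 62 genes whose first 50 kb was at least 50% covered had a median of 27 CpG, and the 77 under 5% had 26. Covered and empty starts were thus alike in median CpG number.

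Bins inside very long genes carried more H3K27me3 than the rest of the autosomes in every library. In controls the mean coverage of a member bin was 32.5%, 30.1%, 28.4% and 23.1% in replicates 1 to 4, against 21.7%, 20.1%, 19.04% and 15.8% for all other autosomal bins. In EPZ libraries it was 22.9%, 23.6%, 27.7% and 29.2%, against 15.5%, 15.8%, 18.3% and 18.98%. In P38i libraries it was 31.0%, 29.8%, 31.96% and 25.1%, against 21.1%, 20.3%, 21.96% and 17.4%. In combo libraries it was 25.6%, 26.4%, 30.1% and 28.9%, against 17.1%, 17.2%, 19.96% and 19.01%. Members were higher in 16 of 16 libraries, by a ratio of 1.44 to 1.54, and the ratio varied far less than the coverage itself. They were also above bins inside genes of 100 to 500 kb (control mean 18.1% ± 2.07, SD, n = 4), bins with no protein-coding gene (22.3% ± 3.05) and the remaining bins (11.3% ± 1.27) in 16 of 16 libraries. Of the members, 42.8% (10605 bins) had no island in any library and 13.2% (3276 bins) were at least 50% covered in all 16, against 60.1% and 9.07% of other bins. Where only bins with an island in at least 1 library were counted, the control difference was 1.87 points (49.9% ± 6.997 against 48.0% ± 6.20), in place of 9.37, though members stayed higher in 16 of 16 libraries. Most of the difference was therefore in the share of bins without any island. Assembly gaps and stretches where reads cannot be placed were not masked, so they count as empty bins. How far they add to the empty share of other bins, and so to the difference, was not tested. The 437 members that another protein-coding gene also overlapped were 12.1% ± 1.51 covered in controls, and the 24339 with no other gene 28.8% ± 4.05.

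**Figure D1:**
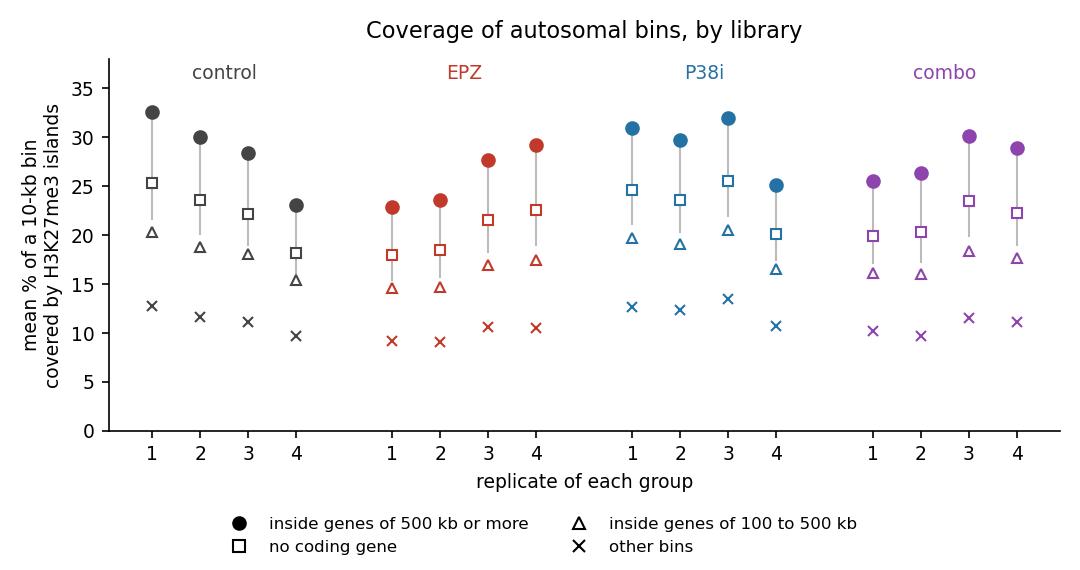
Mean coverage of 10-kb autosomal bins by H3K27me3 islands (y axis, percent) in each of the 16 libraries (x axis, replicate within group). Filled circles are bins inside genes of at least 500 kb, squares bins without a coding gene, triangles bins inside genes of 100 to 500 kb, crosses the remaining bins, and each grey line reaches down to the mean of all other autosomal bins. The circle is the highest symbol in 16 of 16 libraries, from 22.9% to 32.5%.

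The group means of member coverage did not separate. They were 28.5% ± 4.00 in control, 25.8% ± 3.07 in EPZ, 29.5% ± 3.04 in P38i and 27.7% ± 2.13 in combo (SD, n = 4). Over the 8 libraries with the EZH2 inhibitor members were 26.8% ± 2.65 covered (lowest 22.9%, median 27.03%, highest 30.1%), and over the 8 without it 29.0% ± 3.33 (lowest 23.1%, median 29.9%, highest 32.5%), so the ranges overlapped almost fully. Relative to control, the EPZ mean differed by -9.45% in members and by -10.7% in other bins, and the covered length of the whole list by -10.6%.

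Very long genes fell into empty, partly covered and nearly full ones. For this count and those below, coverage was taken over the gene with flanks of 2.5 kb. Of the 303 genes, 52 had no island in any of the 16 libraries, 109 had a control mean under 5%, 112 lay between 5% and 50%, 73 between 50% and 90%, and 9 at 90% or more. The median was 18.0% and 27.1% were at least 50% covered, whereas the median over all 19970 protein-coding genes was 0 and 10.9% were at least 50% covered. Among 3037 genes of 100 to 500 kb the median was also 0, and 15.2% were at least 50% covered. The length limit was not a natural break: the genes just above it were PPP2R2B (500.8 kb, 82.0% ± 4.76 in control), PPFIA2 (501.4 kb, 19.7% ± 5.69) and SPOCK3 (501.6 kb, 8.41% ± 3.34), and those just below were DIAPH3 and ITPR2, both at 0, and CPQ (498.3 kb, 39.3% ± 7.46).

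The fullest genes were covered nearly end to end in each control library. ST6GALNAC3 (chr1:76074746-76637339), a sialyltransferase, was 98.8%, 96.5%, 97.2% and 96.8% covered in the 4 controls. TSHZ2, a zinc finger transcription factor, had values from 92.8% to 97.3%. PHACTR1, a regulator of protein phosphatase 1 and actin, had 96.3%, 96.3%, 94.8% and 93.2%. These 3 genes were close to full in all libraries, with group means from 95.2% to 98.5% under every treatment, and stood above the upper limit of 95% for the test. CTNND2 (delta-catenin), RORA (a nuclear receptor) and AFF3 (a transcription elongation factor) followed with control means of 94.5% ± 3.46, 92.1% ± 1.88 and 90.9% ± 2.37. Unbroken runs of bins at least 50% covered in all 4 controls reached 550 kb in SLIT3 (an axon guidance ligand) and PHACTR1 and 540 kb in TENM2 (teneurin 2, a synaptic adhesion protein). Runs of 300 kb or more occurred in 15 genes, of 100 kb or more in 68, and 115 genes had no such bin. The widest single island inside a very long gene was between 135 kb (control replicate 4) and 456 kb (control replicate 1).

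The 6 longest genes did not share a state. RBFOX1 (2474 kb, a neuronal splicing factor) was 11.3%, 3.83%, 4.25% and 2.60% covered in the controls. CNTNAP2 (2304 kb, an axonal adhesion protein of the neurexin family) had 22.1%, 23.2%, 18.5% and 18.3%. PTPRD (2299 kb, a receptor tyrosine phosphatase of synapses) had no island in any of the 16 libraries. DLG2 (2173 kb, a synaptic scaffold) had 84.0%, 81.3%, 77.2% and 62.7%. CSMD1 (2060 kb, a complement regulator) had 12.1% ± 3.74 and MACROD2 (2058 kb, an ADP-ribose hydrolase) 2.92% ± 0.916. Only DLG2 of the 6 had most of its length covered.

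**Figure D2:**
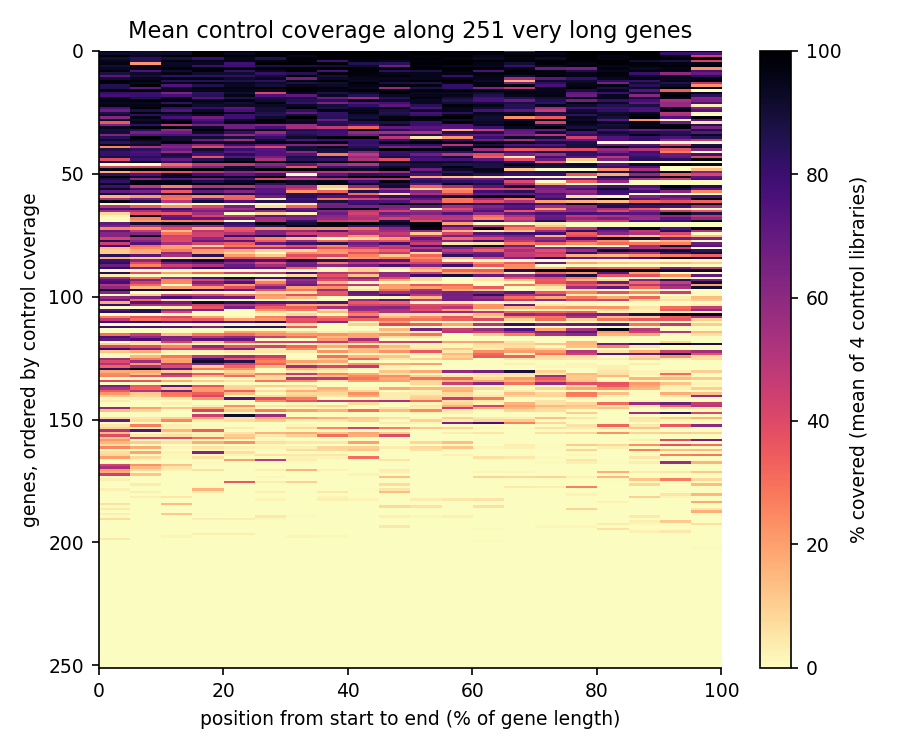
Mean coverage of 20 equal parts from start to end (x axis, percent of gene length) of the 251 very long genes with a known strand (rows, ordered by control coverage), as the mean of 4 control libraries (colour, percent). The upper rows are covered over most of their length, the rows in the middle hold covered and empty stretches, and the lowest rows are empty throughout.

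The functional lists differed in how covered their members of at least 500 kb were. Ion channel genes had a median control coverage of 53.9%, with 6 of 10 at least 50% covered. The calcium release channels RYR3 (90.4% ± 2.08) and RYR2 (82.5% ± 7.78) were the highest, and the potassium channel KCNQ5 was at 0 in all libraries. Synaptic scaffold and vesicle genes had a median of 48.7%, with 6 of 14 at least 50% covered, from ERC2 (an active zone protein, 84.3% ± 7.35) and DLG2 (76.3% ± 9.51) to MAGI1, a junction scaffold that also occurs in epithelium, at 0.0435%. Growth factor and cyclic nucleotide signalling genes had a median of 48.3%, with 7 of 14 at least 50% covered. RELN (reelin, an extracellular guidance protein) had 90.7% ± 5.01 and FGF12 (a fibroblast growth factor homologue that modulates sodium channels) 87.4% ± 6.21, while the receptor kinase ERBB4 had none.

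Synaptic and axonal adhesion genes, the largest list, had a median of 29.6%, with 9 of 36 at least 50% covered and 9 under 5%. SLIT3 had 89.9% ± 4.21, TENM2 89.9% ± 5.21 and PTPRD 0. Transcription factors had a median of 23.5%, with 5 of 13 at least 50% covered. TSHZ2 and RORA led this list, and GLIS3, a zinc finger factor, was at 0. Among 7 glutamate and GABA receptor genes the median was 16.4%, with the metabotropic receptors GRM8 (67.6% ± 11.1) and GRM5 (66.8% ± 9.36) at the top and the kainate receptor GRIK2 at 0. Among 10 cadherin, protocadherin and catenin genes it was 12.9%, with CTNND2 and CDH13 (55.5% ± 12.8) highest and CDH4 (0.391% ± 0.589) lowest. Common fragile site genes, at loci that break under replication stress, had a median of 16.7% over 14 genes, near that of all very long genes, from RORA down to NBEA (0.0351%).

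Widely expressed genes of the same length were almost empty. Of 20 such genes the median was 0, none was at least 50% covered, 18 were under 5%, and 12 had no island in any of the 16 libraries. The highest was NAV2 (a neuron navigator protein), with 22.9%, 17.2%, 16.2% and 15.6% in the controls, and the next FHIT (a diadenosine hydrolase) with 12.9% ± 3.41. VPS13B, a lipid transfer protein, was among those at 0. All 9 lists were drawn up with earlier results of these data known, so the contrast between them is a description.

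**Figure D3:**
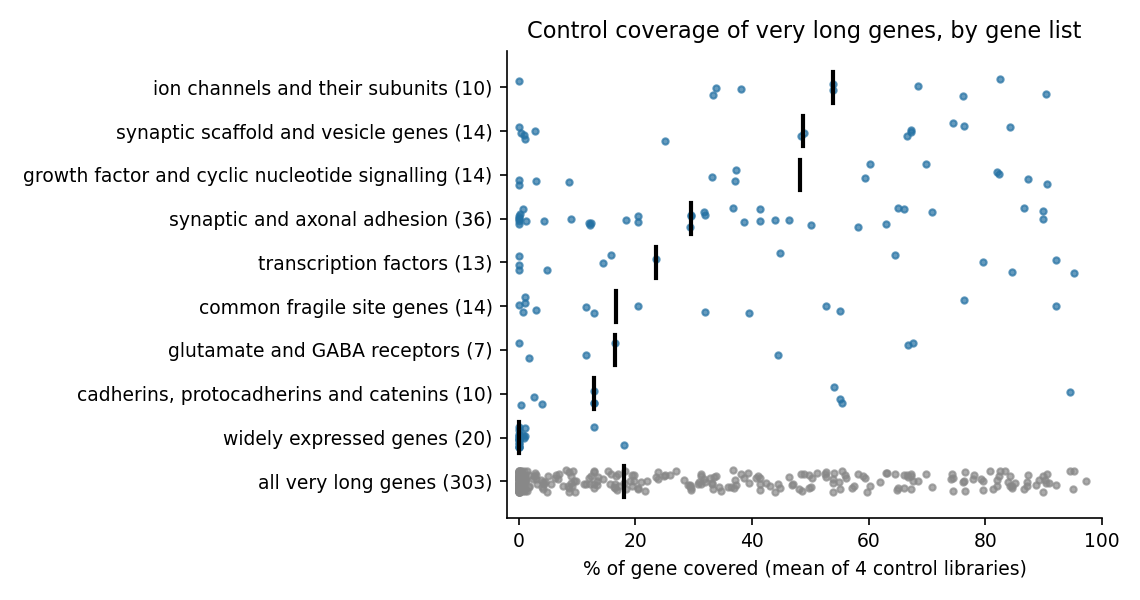
Control coverage (x axis, percent of gene, mean of 4 libraries) of each very long gene (points) in 9 functional lists, with the number of genes in parentheses; black bars are medians. Widely expressed genes lie near 0, while the median of ion channel genes is 53.9% and that of all 303 genes 18.0%.

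Coverage was higher in the first 50 kb of very long genes than in their interiors, and lower in the last 50 kb. Of the 303 genes, 251 had a strand in the promoter table and were aligned on it. The start here is the outer bound of the gene, and 177 genes had a listed RefSeq start at that bound. The start region (first 50 kb, 1129 bins) was 38.8%, 37.3%, 35.2% and 28.7% covered in the 4 controls, the interior (18261 bins at least 50 kb from either end) 33.7%, 31.2%, 29.4% and 24.2%, and the end region (last 50 kb, 1126 bins) 29.3%, 26.4%, 25.7% and 21.9%. The start was above the interior and the end below it in 16 of 16 libraries. These are means over bins, so a longer gene weighs more in the interior than in the start or end region. How far this adds to the differences was not tested. The difference between start and interior was 5.33 points ± 0.705 in control, 3.88 ± 0.687 in EPZ, 5.66 ± 0.516 in P38i and 4.22 ± 0.398 in combo (SD, n = 4). Over the libraries with the EZH2 inhibitor it ran from 2.97 to 4.71 points and over those without it from 4.47 to 6.40, so these ranges nearly separated. A difference in points also depends on total coverage, and the libraries with the inhibitor had a shorter covered length. The value of 4.47 was that of control replicate 4, which had the smallest covered length of the controls. Relative to libraries without the inhibitor, those with it differed by -9.93% in the start region and -6.95% in the interior. The part of covered length in this was not tested. With gene length divided into 10 equal stretches, control coverage went from 33.1% ± 4.29 in the first to 28.0% ± 3.45 in the last, but the lowest was the stretch numbered 8 (27.3% ± 3.77). In the 3 treated groups too the first stretch was above the last and stretch 8 below it.

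The raised coverage was not confined to the gene side of the start. In 10-kb windows, control coverage was 25.3% ± 3.19 from 200 to 190 kb before the start, 36.2% ± 5.16 from 20 to 10 kb before it, 35.4% ± 3.62 in the first 10 kb, and 36.1% ± 4.90 from 10 to 20 kb after it. At 490 to 500 kb inside the gene it was 28.6% ± 2.94. Towards the end it went from 29.7% ± 4.13 at 100 to 90 kb before the end to 25.2% ± 3.13 in the last 10 kb and 24.1% ± 4.11 in the 10 kb beyond. The first 10 kb was 30.4% ± 2.47 covered in EPZ, 35.9% ± 3.68 in P38i and 32.3% ± 2.63 in combo, within the spread of the controls for P38i and combo. These windows count from the outer bound of all 251 genes. The 10 kb centred on the 177 listed RefSeq starts at an outer bound was less covered in controls (31.3% ± 2.42).

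**Figure D4:**
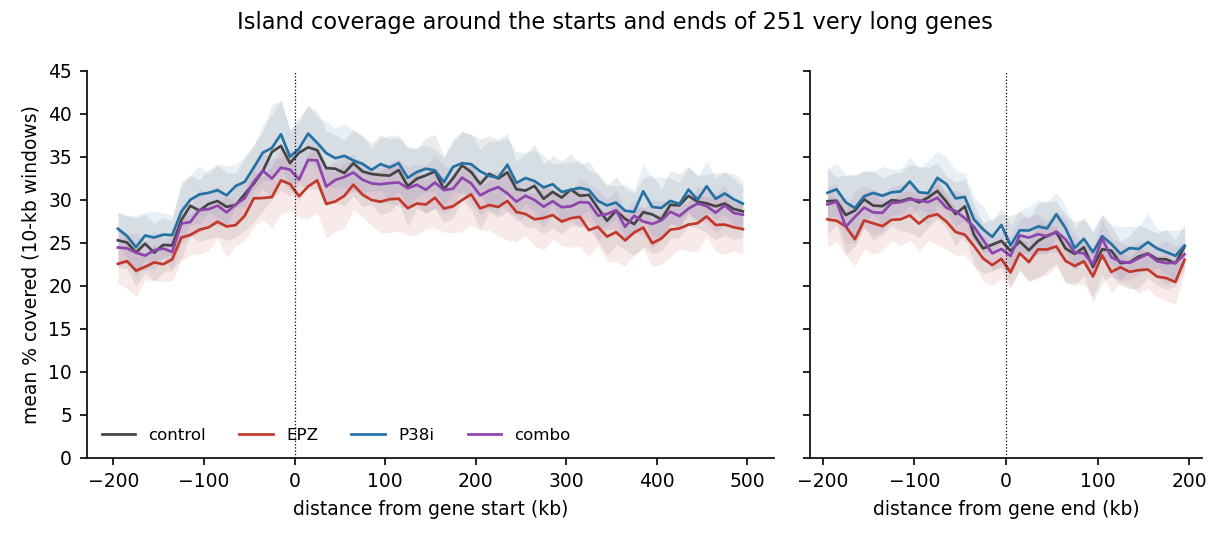
Mean coverage in 10-kb windows (y axis, percent) by distance from the start (left) and end (right) of 251 very long genes (x axis, kb; positive values lie downstream), with 1 line per group and a band of 1 SD over its 4 libraries. All 4 groups have their highest window within 30 kb of the start (in controls 36.2% ± 5.16, from 20 to 10 kb before it). The first 10 kb is lower than that window in each group (35.4% ± 3.62 in controls). Coverage falls within the last 50 kb of the gene, in controls from 29.2% ± 3.17 at 50 to 40 kb before the end to 24.3% ± 2.97 at 30 to 20 kb.

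Single genes departed widely from this mean profile. Among 160 genes with a control mean from 5% to 95%, the first 50 kb exceeded the interior by 20 points or more in 47, fell short of it by as much in 28, and lay within 20 points in 85. DGKB (diacylglycerol kinase beta) had 84.9% in its first 50 kb, 12.7% in its interior and 0 in its last 50 kb. DPP10, a subunit of potassium channels, had 90.7%, 32.4% and 0. The opposite order was seen in MAGI2 (0 in the first 50 kb and 90.2% in the last), RPS6KC1 (a ribosomal S6 kinase-like protein, 0 and 95.4%) and TENM4 (15.7% and 69.8%). Pooled over genes, the 250 interior bins with an inner RefSeq start were 33.3% ± 2.68 covered in controls and the 18011 without one 29.6% ± 4.04, higher in 16 of 16 libraries; bins of the same gene were not compared. Of 588 listed starts, the 325 with at least 10 CpG had 30.1% ± 2.78 of the surrounding 10 kb covered and the 263 with fewer 34.0% ± 2.55.

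Coverage was then compared between treatments in single bins. Bins with a mean of 5% to 95% over the 16 libraries were fitted with limma, which left 87726 autosomal bins, 10619 of them members, and p-values were adjusted over all 87726 by the Benjamini-Hochberg method with a threshold of 0.05. For EPZ against control, no member passed (background 0.00342% of all tested bins), with 1390 members (13.1%) at an unadjusted p below 0.05, against 12.6% of all bins. For P38i against control, none passed (background 0%), with 441 (4.15%) at that unadjusted level, against 5.35% of all bins. For combo against control, 1 member passed (background 0.0114%), with 1258 (11.8%) at the unadjusted level, against 11.9% of all bins. These 3 comparisons share the control libraries.

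The EZH2 inhibitor libraries, 8 with against 8 without, differed in more bins. Members were lower in 103 of 10619 (0.970%, against a background of 1.13% of all bins lower) and higher in 8 (0.0753%, against a background of 0.0958%), so the members' share was near the background. The median difference was -4.50 points over members and -5.50 over all tested bins. The lower members lay in 58 genes, and 35 genes held 1 each. PDE4D, a phosphodiesterase that degrades cyclic AMP, held 8, ADGRV1 (an adhesion G protein-coupled receptor of sensory hair cells) and LRP1B (a lipoprotein receptor family member) held 5 each, and BBS9 (a subunit of the ciliary BBSome) and ZNF804B (a zinc finger protein) 4 each. Of 75 lower members in genes with a strand, 13 (17.3%) lay in the first 50 kb, where 523 of 8754 tested members (5.97%) lay. Over the lower members the median coverage was 75.8% without the inhibitor and 22.8% with it. The libraries with the inhibitor also had a shorter covered length (546 Mb ± 50.7 against 605 Mb ± 67.1, SD, n = 8). None of the lower calls was made with covered length as a covariate (0 lower, 1 higher) or with all lists trimmed to equal length (0 and 0). The trimming kept the widest islands of each library up to the smallest covered length of any library. It therefore dropped narrow islands, most of all from libraries with a long covered length, and is not an even scaling. Without each library in turn, the calls in both directions ranged from 25 (without P38i replicate 1) to 202 (without control replicate 4).

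The most distinct higher bin lay in OPCML, a GPI-anchored opioid-binding cell adhesion protein, at chr11:133340001-133350000 on hg38, 188 kb inside the gene from its start. Its coverage was 0 in all 4 control and all 4 P38i libraries, 70%, 64%, 70% and 34% in EPZ and 78%, 100%, 92% and 66% in combo. The bin thus met the filter on mean coverage only through the libraries with the inhibitor, and it was picked as the most distinct of the called bins. The difference was 71.8 points for the inhibitor (limma adjusted p = 0.00228) and 84.0 for combo against control (limma adjusted p = 0.0328). Since the bin was selected in this way, these p are no independent support for a difference. With all untreated values at 0, the shared estimate of the spread may also be too small and these p too low. The inhibitor call was kept whichever library was left out (adjusted p from 0.00173 to 0.0105) but lost with lists of equal length or without the narrowest library of each group (up to 0.0993), whereas the combo call was kept in 9 of 16 such fits (up to 0.158) and lost with lists of equal length, with the replicate block and in a fit of those groups alone. A further OPCML bin, chr11:133500001-133510000, had 28%, 0, 0 and 0 in control, 0, 8%, 0 and 0 in P38i, 32%, 42%, 70% and 8% in EPZ and 50%, 74%, 100% and 92% in combo (difference 54.0 points, limma adjusted p = 0.0173). NRXN3 (a neurexin) had a bin at chr14:79770001-79780000 that was empty in all 8 libraries without the inhibitor and between 0 and 60% covered with it. That bin too met the filter only through the libraries with the inhibitor. Whole OPCML had 58.2% ± 9.36 in control, 67.7% ± 4.05 in EPZ, 62.3% ± 3.40 in P38i and 73.0% ± 5.57 in combo, and its inhibitor difference of 10.0 points did not pass (limma adjusted p = 0.0565).

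Whole genes were fitted in the same way, over 4104 protein-coding genes of chromosomes 1 to 22 and X with a mean coverage from 5% to 95%. Of the 303 very long genes 190 were tested, 110 had a mean below 5% and 3 above 95%. For EPZ against control 1 passed (background 3.17% of all tested genes), and for combo against control 1 passed (background 1.68%), both ADGRV1 and both lower. For P38i against control none of the 190 passed (background 0.292%) and none had an unadjusted limma p below 0.05, compared with 416 of the 4104. Among the largest moderated t with P38i, positive differences were those of RBFOX3 (a neuronal nuclear splicing factor, 15.4 points ± 7.49 SE), CAMTA1 (9.91 ± 5.44) and FSTL4 (a follistatin-like protein, 5.52 ± 3.14), and negative ones included those of ADGRL3 (latrophilin 3, -4.21 ± 2.65) and ZNF804B (-4.70 ± 3.71), with limma adjusted p from 0.512 to 0.740. Very long genes thus showed no detectable P38i difference at this replication.

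ADGRV1 (chr5:90558797-91164437, 606 kb) had the clearest difference of any very long gene. Its coverage was 40.3%, 43.5%, 37.1% and 27.5% in control, 44.0%, 37.3%, 42.0% and 27.4% in P38i, 12.2%, 16.8%, 20.3% and 20.4% in EPZ and 15.4%, 17.6%, 19.2% and 19.96% in combo. Every library with the EZH2 inhibitor was below every library without it. It fell by 19.7 points ± 4.39 (SE) in EPZ (limma adjusted p = 0.0317), by 19.05 ± 4.39 in combo (limma adjusted p = 0.0429) and by 19.7 ± 3.10 over both (limma adjusted p = 0.00209), while with P38i it differed by 0.606 ± 4.39. The difference over both was kept whichever library was left out (adjusted p from 0.000735 to 0.00626) and after adjustment for covered length, and was lost with lists of equal length (adjusted p = 0.0550). The EPZ call was lost without control replicate 1, 2 or 3 or EPZ replicate 1, 2 or 3 (up to 0.101), and the combo call was kept in 4 of 16 such fits (up to 0.133). Both were also lost with lists of equal length, with the replicate block and in fits of the compared groups only, and the combo call with no flank.

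The EZH2 inhibitor libraries were lower in 30 of the 190 tested very long genes (15.8%), against a background of 15.6% of all tested genes lower, and higher in 1 (0.526%), against a background of 0.877%. The share was that of genes in general. Differences among the 30 ran from -3.67 to -19.7 points with a median of -11.5, and coverage without the inhibitor from 9.38% to 84.6%. The libraries of both arms did not overlap in ADGRV1 and CAST, the calpain inhibitor calpastatin (9.38% ± 1.32 without the inhibitor and 5.71% ± 0.823 with it, SD, n = 8), and overlapped in the other 28. Of all 4104 tested genes 1.56% had all libraries with the inhibitor below all without it, and of the 642 called lower 9.81%, beside 6.67% of the 30. The direction of this count depends on total coverage: with covered length as a covariate, 27 very long genes were higher and 8 lower, and with lists of equal length 9 were higher and 2 lower. Under those settings 9 and 3 of the 31 genes were still called in the same direction. None of the 31 changed its sign under any setting tried, and 11 were called whichever library was left out.

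Those with the largest differences after ADGRV1 were SGCZ, STXBP5L, NKAIN3, CPNE4 and GRIP1. SGCZ (zeta-sarcoglycan, of the dystrophin complex) had 58.6%, 59.4%, 60.6% and 32.4% in control, 64.7%, 48.0%, 55.0% and 33.1% in P38i, 24.2%, 25.3%, 31.4% and 45.6% in EPZ and 26.8%, 37.1%, 35.5% and 29.2% in combo. Replicate 4 of control and of P38i lay among the treated values. It fell by 19.6 points ± 5.40 over both inhibitor groups (limma adjusted p = 0.0251). STXBP5L (a tomosyn, which restrains vesicle release) went from 47.8% ± 11.4 to 30.8% ± 6.30 (SD, n = 8; limma adjusted p = 0.0309), and NKAIN3 (a partner of the sodium pump) from 49.7% ± 10.9 to 33.7% ± 6.89 (limma adjusted p = 0.0369). CPNE4 (a copine, a calcium-dependent membrane-binding protein) went from 57.5% ± 11.3 to 42.1% ± 7.38 (limma adjusted p = 0.0438), and GRIP1 (a scaffold of AMPA receptors) from 62.0% ± 9.55 to 46.7% ± 7.77 (limma adjusted p = 0.0377). In these 5 genes the arms overlapped, the difference from control did not pass for EPZ or combo alone, and the inhibitor call was kept in 4 to 9 of the 16 fits that each left out 1 library.

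Counts per list are small and are given beside the 15.6% of all tested genes and 15.8% of very long genes that were lower; lists were not tested against each other. The genes lower with the inhibitor were 3 of 11 tested growth factor and cyclic nucleotide signalling genes (ADGRV1, PDE4B and PDE4D), 3 of 8 transcription factors (SOX6, MECOM and FOXP2), 2 of 28 adhesion genes (LSAMP among them) and 2 of 9 scaffold and vesicle genes (STXBP5L and RIMS2), and 20 were on no list. None passed among 9 ion channel, 7 cadherin, 5 glutamate and GABA receptor, 9 fragile site or 2 widely expressed genes tested. PDE4B went from 31.9% ± 7.17 to 18.5% ± 4.07 (SD, n = 8), and PDE4D, of the same enzyme family, from 59.5% ± 4.76 to 48.4% ± 3.56. SOX6, a factor of chondrocyte and neuronal differentiation, went from 84.5% ± 5.13 to 73.9% ± 4.68, and FOXP2, a forkhead repressor, from 14.1% ± 5.97 to 3.67% ± 2.26. The median difference was -10.0 points over scaffold genes, -6.31 over signalling genes, -6.08 over fragile site genes and -5.60 over transcription factors. It was -4.99 over glutamate and GABA receptor genes, -1.96 over adhesion genes, -1.84 over ion channels and -0.653 over cadherin genes. The 2 widely expressed genes tested had a median of 1.31. Over all very long genes it was -3.51, and over all 4104 genes -4.84. ADGRV1, PDE4B, PDE4D and FOXP2 were called whichever library was left out.

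MDGA2, a membrane glycoprotein that restrains synapse formation, was the 1 very long gene called higher with the inhibitor in the main fit. Its coverage was 10.1%, 15.0%, 7.82% and 5.11% in control, 11.9%, 10.3%, 13.8% and 5.95% in P38i, 16.6%, 14.3%, 17.5% and 25.8% in EPZ and 13.8%, 17.2%, 27.9% and 24.0% in combo. The lowest treated values lay within the range of the untreated ones. It rose by 9.64 points ± 2.59 (SE; limma adjusted p = 0.0221), was called whichever single library was left out but not without the narrowest library of each group (adjusted p = 0.0613), and did not pass for EPZ (9.04 ± 3.66, limma adjusted p = 0.175) or combo alone (11.2 ± 3.66, limma adjusted p = 0.120). The largest moderated t among positive differences from control that did not pass were those of PTPRN2 (a phosphatase-like protein of secretory granules, 13.2 points ± 5.31 in EPZ and 17.9 ± 5.31 in combo), SEMA5A (a semaphorin, 17.6 ± 5.43 in combo), OPCML (14.7 ± 4.79 in combo) and RGS7 (a regulator of G protein signalling, 7.34 ± 3.35 in EPZ), with limma adjusted p from 0.0904 to 0.229. The effect of the EZH2 inhibitor did not differ detectably with and without the p38 inhibitor: the limma interaction passed in none of the 10619 member bins (404 at an unadjusted p below 0.05) and none of the 190 genes (0 at that level), against a background of 0 of 87726 bins and 2 of 4104 genes.

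**Figure D5:**
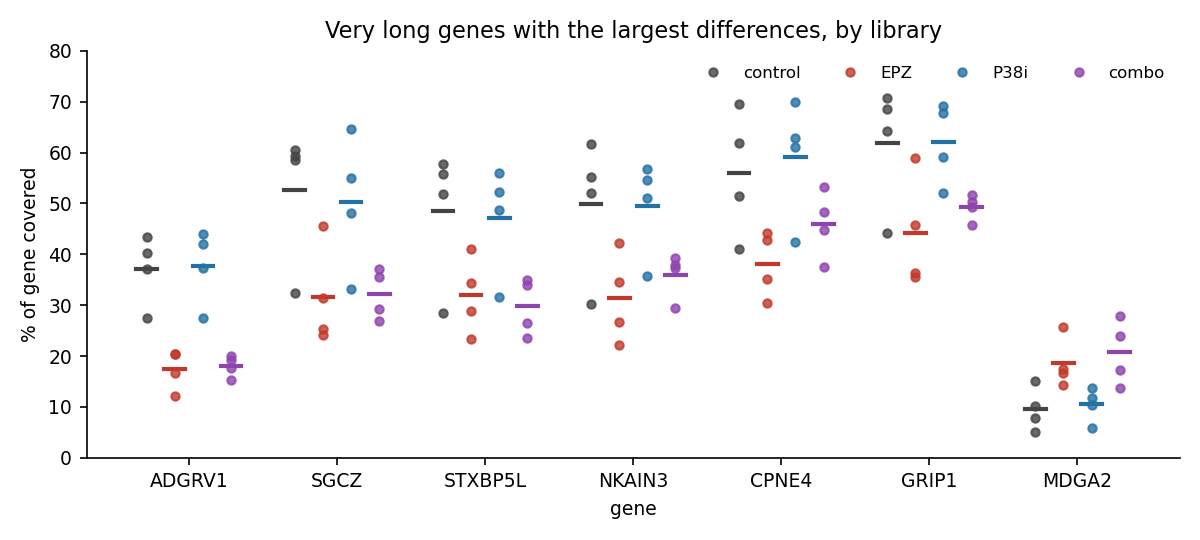
Coverage (y axis, percent of the gene and its flanks) in each library, by very long gene (x axis). The genes are the 6 with the largest decline among those called lower with the EZH2 inhibitor and the 1 called higher. Points are libraries, bars are means of 4. In ADGRV1 the EPZ and combo points (12.2% to 20.4%) lie below all control and P38i points (27.4% to 44.0%), and in the other genes the points overlap.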

How the data were processed

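H3K27me3 was measured in 16 libraries, 4 per group. The 16 IgG libraries of the series were not used here. Per the submitters' processing notes, the tools were SICER, Bowtie2 2.3.4.1, SAMtools 1.2, Picard, bedtools 2.28.0, FastQC, cutadapt and Trim Galore. Caller settings and the order of steps: not given in the sources used here. The files deposited by the authors hold island bounds on hg38 in 200-bp windows, with no score or count, so read depth is unknown and no interval for counting error is given.

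From these bounds the percent of each 10-kb bin or gene (with 2.5 kb on each side) under islands was computed. The percent of each bin was checked with bedtools 2.31.1 on 496 bins. limma 3.58.1 in R 4.3.3 (trend and robust options) was fitted to percent coverage over all 16 libraries. The fit took bins and genes with a mean of 5 to 95%, with Benjamini-Hochberg adjustment over all tested features and a threshold of 0.05. It was tested on simulated gene coverage with changes put into EPZ. That simulation held no bins and no shift in covered length between libraries, so it cannot tell how the calls behave under such a shift. Comparisons were EPZ, P38i and combo against control, and all libraries with against all without the EZH2 inhibitor. Python 3.11.15 with pandas 2.3.3 made the summaries.

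The members and lists were chosen with earlier results of these data known. Named genes were, per comparison, the 6 with the largest rise and fall past the threshold (the 3 with the largest moderated t where none passed), the 6 highest in control, the 6 longest and, per list, the 2 highest and 1 of the lowest. CAST, PDE4B, PDE4D, SOX6, FOXP2, MECOM, LSAMP, RIMS2, the genes of the start and end comparison and the called bins were chosen after their values were seen. The written plan placed the 52 genes without a strand from the lower coordinate; they were left out of positions after the table was seen. Promoters on chromosome 8 were left out. Single results for some genes are not reported here. Alternatives were other filters, scalings, bin sizes and sets of libraries.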

Additional observations from a re-analysis of the deposited data

Results flagged for a closer look

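Of 203 groups of 4 libraries examined for the named genes, 13 held a library that stood apart from the other 3 by Dixon's criterion. Chance alone gives about 1 in 20, and the count is near that rate. The groups share the same 16 libraries, so they are not independent. Coverage of PTPRN2 was 55.87% in EPZ replicate 3, above the others of its group, as was that of FSTL4 (85.64%) in the same library. ZNF804B stood out high in EPZ replicate 4 (21.44%). Low values were those of SGCZ (32.37%) and FGF12 (78.13%) in control replicate 4 and of PHACTR1 (93.45%) in EPZ replicate 1. P38i replicate 4 stood apart in CTNND2 (92.92%), FHIT (10.83%) and RIMS1 (59.55%). Among nearly empty genes, single libraries held a small island: CDH4 in P38i replicate 2 (1.91%), MAGI1 in control replicate 2 (0.1738%) and EPZ replicate 2 (0.1448%), and NBEA in control replicate 3 (0.1402%). Where the rest of a group is empty, any small island meets the criterion, so the rate of 1 in 20 does not hold there.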

How the results depend on the processing

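The cause of the changes below was not tested. Mean control coverage of members (28.5%) was 23.5% with lists of equal length and 49.9% over bins with an island in at least 1 library (27.2% to 30.3% without 1 library). The excess over other bins (9.37 points) was 1.87 over bins with an island (8.88 to 10.1 without 1 library). Start minus interior (5.33 points) was 4.56 with lists of equal length, 6.79 over bins with an island and 4.75 with strandless genes placed, the last chosen after seeing the data (5.09 to 5.61 without 1 library).

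Called member bins for EPZ (0) were 4 on the arcsine scale and 7 in 20-kb bins, and 0 to 34 without 1 library. For P38i (0) they were 0 to 1 without 1 library. For combo (1) they were 0 with lists of equal length, the replicate block, the compared groups only or without the narrowest library of each group (chosen after seeing the data), 2 in 20-kb bins, and 0 to 8 without 1 library. For the inhibitor (111) they were 71 with no filter, 1 with covered length as a covariate, 0 with lists of equal length, 188 on the arcsine scale, 68 with the replicate block, 203 in 20-kb bins and 0 without the narrowest libraries, and 25 (without P38i replicate 1) to 202 (without control replicate 4).

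Called very long genes for EPZ (1) were 3 with no filter (1 higher and 2 lower), 4 with the covariate (3 higher and 1 lower), 1 with lists of equal length (higher, and not the same gene) and 0 with the replicate block, the compared groups only or without the narrowest libraries, and 0 to 26 without 1 library (26 without control replicate 4). For combo (1) they were 2 with no filter, a 10 to 90% filter or the arcsine scale, 36 with the covariate (21 higher and 15 lower), 4 with lists of equal length (all higher) and 0 with the replicate block, the compared groups only, no flank or without the narrowest libraries, and 0 to 15 without 1 library (15 without control replicate 4). For P38i none was called under any setting run. For the inhibitor (31) they were 11 with lists of equal length, 9 without the narrowest libraries, 22 with the replicate block, and 11 (without P38i replicate 3) to 59 (without control replicate 4).

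The labels do not say whether replicate numbers pair the libraries. Deviations of same-numbered libraries correlated from -0.0523 to 0.102 over 24 pairs, and 3 of 16 libraries were closest to one of their own number. These values show no pairing in coverage, but cannot tell whether same-numbered libraries were handled together. Read depth, which sets what can be called as an island, is unknown.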
